A study of Mus musculus with 2 samples.

Results

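The genes described here are 48 mouse genes that act in G2 phase and mitosis, from the cyclin-dependent kinase that starts division to the proteins that part the daughter cells. They were taken by symbol from the transcript annotation and linked by gene identifier to the gene tables. All 48 were found among the 55536 Ensembl genes of the series. Total RNA was sequenced from primary neutrophils, which the labels place in the spleen, of adult virgin male B6CASTF1/J mice aged 65 days, the F1 hybrid with C57BL/6 as the mother's strain and CAST/EiJ as the father's. There is 1 group with 2 libraries, called replicate 1 and replicate 2, and no treated or control group. A directional kit and an input of 300 ng of RNA were used for both, and ERCC spike-ins were added. The labels call them biological replicates 1 and 2, each with technical replicate number 1, yet both carry the same donor identifier. The spread between them may therefore be technical, and no value here compares conditions.

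Entry into mitosis is driven by Cdk1 bound to cyclins A and B, and the polo and Aurora kinases act beside it on centrosomes, chromosomes and the spindle. The spindle checkpoint holds the anaphase-promoting complex inactive until all kinetochores are attached, after which cyclin B and securin are destroyed, the chromatids separate and the cell cleaves. Transcription of these genes is kept down in resting cells by the DREAM complex and is raised in G2 phase by B-Myb and FoxM1. In the neutrophil lineage the myeloblast, promyelocyte and myelocyte divide, while band and segmented neutrophils do not.

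The promoters of the members are shown first because many carry the same pair of short motifs, and the matches are a description of the letters only. RefSeq promoters (build GRCm38.p6) run from 250 bases before to 50 bases after a transcription start, and 41 of the 48 members were matched, with 44 promoters. Aurkb, Ccna2, Foxm1, Incenp, Kif20a, Smc4 and Tpx2 were not matched. The core of the cell cycle homology region, the element bound by the MuvB core of DREAM, was searched as TTTGAA or TTCGAA on both strands, and the NF-Y box as CCAAT on both strands. Each sequence below runs 5′ to 3′ on the strand of the gene and ends before the start, leaving out bases that GENCODE places inside the gene. Capitals mark both motifs in either orientation (for the core TTTGAA or its reverse complement TTCAAA and the palindrome TTCGAA, and for the NF-Y box CCAAT or ATTGG). Cdc20 and Kif11 are shown for a core within 50 bases of the start with a single NF-Y box ahead of it, and Ckap2l for a core between NF-Y boxes. Mki67 and Top2a, among the highest members, hold several copies of each, and Ccnb2, the member with the largest ratio of scaled counts between the libraries, has 3 NF-Y boxes, with a further core after the start. In Cdk1 the 26 bases left out hold another core.
Cdc20 (chr4:118437353-118437463, minus strand): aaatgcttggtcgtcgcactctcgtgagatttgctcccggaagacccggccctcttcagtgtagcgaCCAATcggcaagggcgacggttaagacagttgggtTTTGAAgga
Kif11 (chr19:37376262-37376381, plus strand): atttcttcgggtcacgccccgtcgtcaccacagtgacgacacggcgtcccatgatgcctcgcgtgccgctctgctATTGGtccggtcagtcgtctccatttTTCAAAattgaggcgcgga
Ckap2l (chr2:129297213-129297342, minus strand): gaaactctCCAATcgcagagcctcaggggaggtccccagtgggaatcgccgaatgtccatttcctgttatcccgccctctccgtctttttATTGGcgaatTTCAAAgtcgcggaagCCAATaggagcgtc
Mki67 (chr7:135716380-135716579, minus strand): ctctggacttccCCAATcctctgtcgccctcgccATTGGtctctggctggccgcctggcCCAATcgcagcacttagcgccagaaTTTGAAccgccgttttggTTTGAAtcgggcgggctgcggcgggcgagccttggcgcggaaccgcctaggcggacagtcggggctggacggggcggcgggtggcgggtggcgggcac
Top2a (chr11:99024190-99024429, minus strand): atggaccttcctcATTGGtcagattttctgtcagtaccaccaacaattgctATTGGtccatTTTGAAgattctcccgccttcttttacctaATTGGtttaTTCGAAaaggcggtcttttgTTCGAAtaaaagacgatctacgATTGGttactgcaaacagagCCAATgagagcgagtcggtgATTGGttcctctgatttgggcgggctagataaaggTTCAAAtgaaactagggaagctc
Ccnb2 (chr9:70421555-70421734, minus strand): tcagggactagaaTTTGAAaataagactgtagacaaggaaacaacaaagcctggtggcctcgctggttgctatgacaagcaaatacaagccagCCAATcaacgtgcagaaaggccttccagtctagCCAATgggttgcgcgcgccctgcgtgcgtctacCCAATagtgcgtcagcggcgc
Cdk1 (chr10:69352939-69353032, minus strand): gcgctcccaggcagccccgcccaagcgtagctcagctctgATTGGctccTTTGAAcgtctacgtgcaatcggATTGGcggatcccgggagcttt

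A core of the cell cycle homology region was found in 37 of the 44 promoters of members (84.1%), against 19.2% of all 32817 promoters of the table. An NF-Y box was found in 35 (79.5%), against 37.4% of all promoters, and both motifs in 33 (75.0%), against 7.51%. At least 2 NF-Y boxes stood in 24 promoters (54.5%), against 11.7% of all. The core lay within 50 bases on either side of the start in 32 promoters of members (72.7%) and in 5.31% of all. In Cdc20 the nearest NF-Y box ahead of the core began at base -53 and the core at base -18, counted from the start, and in Cdk1 these positions were -48 and -15. A core that began 25 to 45 bases after the beginning of an NF-Y box, a range chosen after such positions were seen, was found in 19 promoters of members (43.2%) and in 0.850% of all. The promoters of Birc5, Ccnb1, Cenpe, Mad2l1, Nuf2, Nusap1 and Pttg1 held no core, which says only that these letters are not in the window. For 6 promoters, those of Cdca3, Cdca8, Kif2c, Kif4 and Pttg1 and 1 of the 2 of Bub3, the window lies wholly inside the GENCODE gene, whose start is further upstream. Without them, a comparison chosen after seeing the data, 32 of 38 promoters (84.2%) held the core and 29 (76.3%) both motifs.

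The genes of DNA replication, which peak earlier in the cycle, differed from the members in these letters. Of 38 promoters of a list of 42 replication genes, 6 (15.8%) held the core and 22 (57.9%) an NF-Y box. The E2F motif, searched as TTTCCCGC or TTTGGCGC on both strands, stood in 10 of these 38 promoters (26.3%), in 2 of the 44 promoters of members (4.55%) and in 1.56% of all. Both of the latter belong to condensin genes, Ncapd2 and Ncapg. A list of 74 other mitotic genes lay between, with the core in 39 of 67 promoters (58.2%). In 31 of these 67 (46.3%) a core lay within 50 bases of the start. In 8 (11.9%) a core began 25 to 45 bases after the beginning of an NF-Y box.

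**Figure D1:**
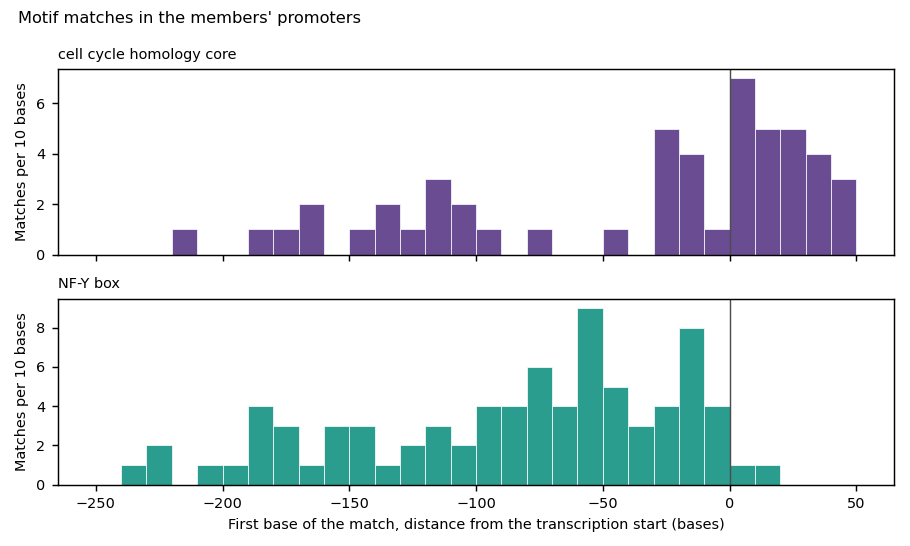
Positions of motif matches in the 44 promoters of members. The horizontal axis is the distance of the first base of a match from the transcription start in bases, and bars count matches per 10 bases for the core of the cell cycle homology region (top) and the NF-Y box (bottom). Cores gather within 50 bases of the start, and nearly all NF-Y boxes lie ahead of the start.

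The libraries held 18387963 (replicate 1) and 18090108 (replicate 2) expected counts. Levels are TPM (transcripts in proportion to the library's total) as deposited, which are per length and so can be set side by side between genes. The neutrophil label was checked against 10 genes of mature neutrophils, whose median was 349.2 and 481.1 TPM in replicates 1 and 2, with S100a9, S100a8 and Retnlg highest at means of 20494, 15887 and 4054 TPM and Fpr1 lowest at 97.1 TPM. Median levels of the other marker lists were 1.16 and 3.71 TPM for B cells, 1.81 and 3.48 for germinal centre B cells, 1.095 and 3.12 for plasma cells, 0.090 and 0.060 for T and NK cells, and 1.22 and 4.52 for erythroid cells. Platelet and megakaryocyte genes stood at 2.34 and 1.73 TPM, stem and progenitor genes at 1.04 and 1.51, and monocyte and macrophage genes at 7.14 and 9.31. The last list held 4 of 10 genes at 10 TPM or more in both libraries, with Ly6c2 (312.5 ± 83.7), Csf1r (74.6 ± 8.44) and Ccr2 (39.98 ± 10.01) highest, and its median lay above that of protein-coding genes (4.02 and 4.86 TPM). Basophil and eosinophil genes had medians of 2.77 and 3.15 TPM, dendritic cell genes 0.665 and 1.35, and endothelial and stromal genes 0.670 and 0.470. Low medians hid single higher genes. At least 10 TPM in both libraries was reached by 2 of 6 germinal centre B cell genes (highest mean 23.9 TPM) and 2 of 6 plasma cell genes (61.2). It was also reached by 1 of 9 T and NK cell (42.5), 2 of 8 basophil and eosinophil (32.6) and 2 of 8 endothelial and stromal genes (60.2). For B cell, erythroid and dendritic cell genes the highest means were 80.2, 44.3 and 44.5 TPM. Tnfrsf17 of plasma cells, Ncr1 of NK cells and Xcr1 of dendritic cells had 0 counts in both libraries, where a count of 0 allows up to 3.

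The mitotic genes were all detected. Their median was 13.5 TPM in replicate 1 and 18.2 TPM in replicate 2 (mean 15.8 ± 3.32, SD, n = 2), and mean levels ran from 4.88 TPM (Ttk) to 95.4 TPM (Incenp). A level of at least 10 TPM in both libraries was reached by 31 of 48 members (64.6%), against 33.5% of the 14620 protein-coding genes with TPM above 0. A further 12 members reached it in 1 library, and Bub1, Ttk, Kif2c, Kif4 and Ckap2 in neither. The fewest counts of any member in either library were 186, for Pttg1 in replicate 1. In bulk RNA, fewer cells of a type and less RNA per cell cannot be told apart, so a level here does not say how many cells were in mitosis.

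The order of the members was similar in both libraries, with a Spearman correlation of 0.95 across the 48 genes, which are not independent replicates and share both libraries. The 7 members above 40 TPM in both were Incenp, Top2a, Mki67, Ncapd2, Smc4, Kif23 and Cenpa, and they held 45.6% and 41.3% of the summed TPM of the members. By counts, which are not per length, Mki67 alone held 25.1% and 27.7% of the members' counts. The members together made 0.325% and 0.287% of the TPM of protein-coding genes.

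**Figure D2:**
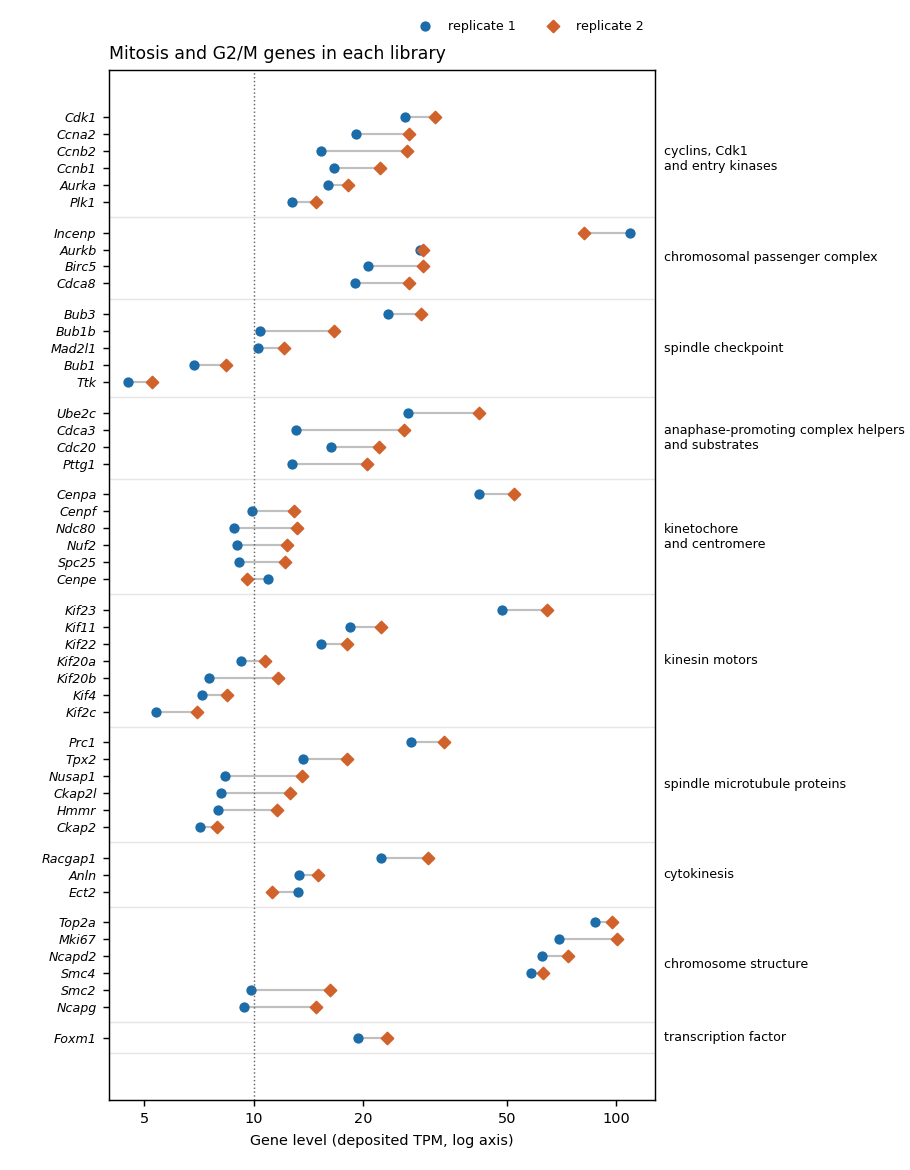
Level of each of the 48 members in replicate 1 (circles) and replicate 2 (diamonds), in deposited TPM on a log axis, grouped by role, with a dotted line at 10 TPM. Members of chromosome structure include 4 of the 7 genes above 40 TPM in both libraries, and 45 of 48 diamonds lie to the right of their circles on this scale. The median of protein-coding genes with TPM above 0 is also higher in replicate 2 (4.02 and 4.86 TPM).

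Among the genes that start mitosis (6 members, median 20.4 ± 5.75 TPM), Cdk1, the kinase itself, was highest at 26.2 and 31.6 TPM. Plk1, the polo kinase that matures centrosomes, was lowest at 12.8 and 14.9 TPM. The cyclins lay between, with Ccna2 at 19.2 and 26.9, Ccnb1 at 16.6 and 22.4 and Ccnb2 at 15.3 and 26.5 TPM. Ccna2 was the highest of these 3 cyclins in each library, narrowly so in replicate 2, while Ccnb1 and Ccnb2 changed places. These orders are by gene TPM. When only protein-coding transcripts were summed, Ccnb1 (9.1 and 13.2 TPM) lay below Ccnb2 (15.3 and 26.5) in both libraries, as by kallisto. Ccna2 (17.6 and 26.4) then lay just below Ccnb2 in replicate 2 and above Cdk1 (17.4 and 20.8) in both libraries. By kallisto coding transcripts Cdk1 (18.8 and 24.5) lay above Ccna2 (15.1 and 23.7). Ccnb2 (13.8 and 25.1) lay above both in replicate 2. Foxm1, the transcription factor of late cell cycle genes, stood at 19.5 and 23.4 TPM.

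The chromosomal passenger complex (4 members, 27.0 ± 3.24 TPM) joins the kinase Aurkb to its scaffold Incenp, to survivin (Birc5) and to borealin (Cdca8). Incenp (ENSMUSG00000024660.9, chromosome 19, 9872296 to 9899551 in GRCm38) was the highest member by mean, at 109.1 and 81.6 TPM. It led in replicate 1, while in replicate 2 Mki67 and Top2a lay above it, and by mean kallisto TPM Mki67 (95.5) exceeded Incenp (86.7). Cdca8 was the lowest of the complex, at 19.1 and 26.9 TPM, and Aurkb stood at 28.8 and 29.4 TPM. Incenp exceeded the lowest member of the complex by 5.72 times in replicate 1 and 3.04 times in replicate 2, and by 3.46 and 2.54 times when only protein-coding transcripts were summed.

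Genes of the spindle checkpoint were lower (5 members, 11.2 ± 1.30 TPM). Bub3, a protein with WD repeats that carries Bub1 and BubR1 to kinetochores, was highest at 23.5 and 28.9 TPM, and Ttk, the kinase that starts checkpoint signalling, was the lowest of the 48 at 4.51 and 5.25 TPM. The kinase Bub1 stood at 6.86 and 8.37 TPM, and Mad2l1, which inhibits Cdc20, at 10.3 and 12.1 TPM. Bub3 lay above the other checkpoint members in both libraries.

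The members around the anaphase-promoting complex are its activator Cdc20, the ubiquitin-conjugating enzyme Ube2c, and the substrates Pttg1 (securin), which holds separase, and Cdca3. The median of these 4 was 19.4 ± 6.67 TPM. Ube2c was highest at 26.7 and 41.8 TPM and Pttg1 lowest at 12.8 and 20.5 TPM. The core subunits of the complex itself, a list of 15, had a median of 14.5 ± 2.53 TPM, with Anapc5 (54.3 ± 3.92), Anapc2 (28.8 ± 8.70) and Anapc13 (26.2 ± 15.2) highest and Anapc10 (1.04 ± 0.035) lowest.

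At the kinetochore and centromere (6 members, 11.1 ± 2.20 TPM), Cenpa, the histone H3 variant that marks centromeres, was highest at 41.9 and 52.1 TPM. The motor Cenpe was the lowest by mean, at 10.95 and 9.57 TPM. Ndc80, Nuf2 and Spc25, subunits of the complex that grips microtubules, stood at 8.85, 9.03 and 9.11 TPM in replicate 1 and 13.2, 12.3 and 12.2 TPM in replicate 2. The fourth subunit, Spc24, which is not a member, had 10.4 and 11.3 TPM, and across the 4 the highest exceeded the lowest by 1.18 and 1.17 times in replicates 1 and 2, and by 1.65 and 1.44 times over coding transcripts alone (1.75 and 1.80 by kallisto).

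Of the 7 kinesins (10.4 ± 1.74 TPM), Kif23, the motor of the central spindle, was highest at 48.5 and 64.4 TPM, and Kif2c, which takes microtubules apart at centromeres, lowest at 5.40 and 6.97 TPM. Kif11, which pushes the spindle poles apart, was next after Kif23 at 18.5 and 22.5 TPM. The chromokinesin Kif4 stood at 7.20 and 8.47 TPM.

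Prc1, which bundles microtubules of the central spindle, led the spindle microtubule proteins (6 members, 10.7 ± 3.45 TPM) at 27.2 and 33.4 TPM, and Ckap2 was lowest at 7.13 and 7.95 TPM. In cytokinesis (3 members, 14.2 ± 1.23 TPM), Racgap1, the partner of Kif23, was highest at 22.5 and 30.3 TPM. Ect2, the exchange factor that activates RhoA at the cleavage site, was lowest at 13.3 and 11.3 TPM.

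By gene TPM, chromosome structure was the role with the highest median (6 members, 64.2 ± 5.48 TPM). Over protein-coding transcripts alone its median, as the mean of the libraries, was 21.6 TPM, just below that of the chromosomal passenger complex (22.1). That order was not seen in both libraries. By kallisto coding transcripts chromosome structure stayed above the complex in each library. Top2a (ENSMUSG00000020914.17, chromosome 11, 98992943 to 99024189), the topoisomerase that untangles sister chromatids, had 87.6 and 97.5 TPM, and Mki67 (ENSMUSG00000031004.8, chromosome 7, 135689784 to 135716361), which coats mitotic chromosomes, 69.4 and 100.2 TPM. The condensin subunits Ncapd2 and Smc4 followed at 62.5 and 73.4 and at 58.1 and 62.7 TPM. Ncapg was lowest at 9.39 and 14.9 TPM, near its partner Smc2 at 9.86 and 16.2 TPM. Within condensin I, Ncapd2 therefore exceeded Ncapg by 6.66 and 4.94 times, and by 2.90 and 3.43 times when only protein-coding transcripts were summed.

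A gene level in total RNA adds up all annotated transcripts, including those that keep an intron or encode no protein, and the members differed in how much of the level came from such transcripts. By the kallisto-layout table, protein-coding transcripts held a median of 75.1% and 81.8% of a member's TPM in replicates 1 and 2. Their share was under 50% in both libraries for 5 members, Ect2, Cenpa, Kif23, Smc4 and Ncapd2 (20.8% of 7197 protein-coding genes with a mean of at least 5 TPM). By the RSEM-layout table it was also under 50% in both for 5 members (17.6% of the genes with a value). Both counts lie below the background share. The coding share was higher in replicate 2 for 34 of 48 members by kallisto (54.5% of all 7197) and for 28 by RSEM (54.6%).

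The genes with the smallest coding share include 4 of the 7 highest. In Cenpa, coding transcripts held 23.1% and 23.6% of the TPM and transcripts with a retained intron 54.3% and 54.2%. In Kif23 the coding share was 25.7% and 34.2%, in Smc4 27.9% and 42.1%, and in Ncapd2 36.7% and 43.6%. Top2a had 53.6% and 62.5%, the rest being annotated as processed transcripts. Mki67, Birc5 and Ube2c had coding transcripts alone in both tables, and Ccnb2 and Ckap2l have a single annotated transcript.

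**Figure D3:**
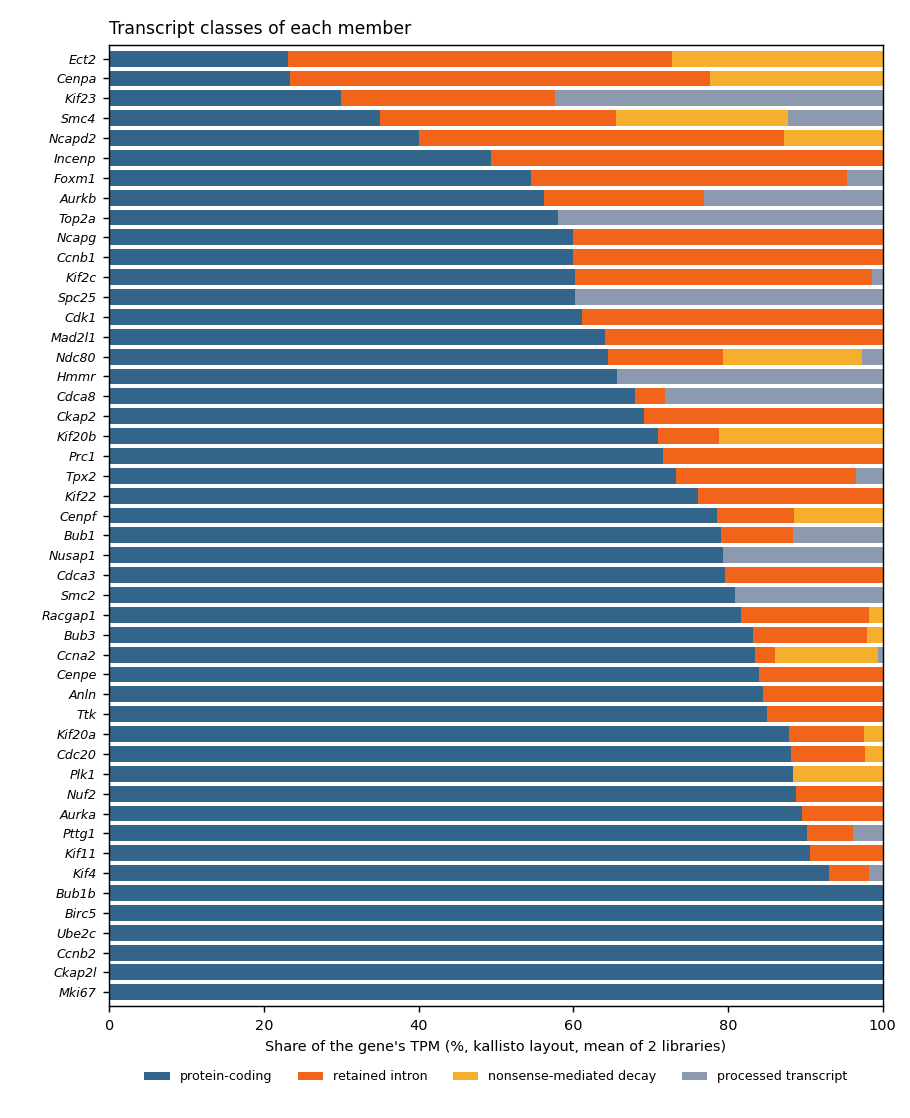
Share of each member's TPM by transcript class, in percent, as the mean of the 2 libraries in the kallisto-layout table, ordered by the protein-coding share. Ect2 and Cenpa have the smallest coding shares, and Mki67 lies at the other end with only coding transcripts.

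Levels over coding transcripts alone had a median of 11.7 ± 2.41 TPM in the RSEM-layout table, and the order changed for some members. Cenpa moved from rank 7 to rank 34, Kif23 from rank 6 to rank 21 and Smc4 from rank 5 to rank 13. By kallisto coding transcripts these 3 stood at rank 29, 16 and 6, so the lower place of Smc4 was seen in 1 table alone. The first 5 by coding transcripts in both tables were Mki67, Incenp, Top2a, Ube2c and Birc5. Centralspindlin is built of Kif23 and Racgap1, and its order turned. Kif23 exceeded Racgap1 by 2.16 and 2.13 times by gene. By coding transcripts Racgap1 exceeded Kif23 by 1.55 and 1.37 times, and by 1.07 and 1.42 times in kallisto, near a tie in replicate 1. The order of these 2 genes depends on whether transcripts that encode no protein are counted.

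The leading transcript, the one with the largest share, was protein-coding in both libraries for 43 of 48 members by the kallisto-layout table (76.7% of 7197 genes) and for 42 by the RSEM-layout table (81.7% of the genes with a value). It was the same in both libraries and both tables for 36. In Ect2 a transcript with a retained intron, Ect2-201, led in all 4 cases. For Incenp a short one of 349 bases, Incenp-203, led in replicate 1 (27.1% by kallisto) and the coding Incenp-205 in replicate 2 (24.1%). Kif23 was led by processed Kif23-202 in replicate 1 and coding Kif23-201 in replicate 2 by kallisto, and by Kif23-208, with a retained intron, in both by RSEM. Cenpa-207, with a retained intron, led except in replicate 1 by kallisto, where coding Cenpa-205 led, and the shares of the leaders were 20.6% to 24.1%.

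Of the other members whose leader varied, most changed between coding transcripts. Aurka was led by Aurka-201 and Aurka-202, with equal values, in kallisto and by Aurka-203 in RSEM, with 70.1% and 94.4% of RSEM TPM. Pttg1 had 3 different leaders, Pttg1-202, Pttg1-203 and Pttg1-206, and Cdca3, Kif20a, Kif20b and Tpx2 also changed only among coding ones. Spc25 was led by the processed Spc25-208 in replicate 1 by kallisto alone (34.9%), Prc1 by the retained-intron Prc1-214 in both libraries by RSEM alone, and Smc4 by Smc4-207, a target of nonsense-mediated decay, in replicate 2 by RSEM alone. At gene level the tables were closer, and the kallisto to RSEM ratio of the members ran from 0.746 to 1.39. Over 2-fold apart in the same direction in both libraries were 0 of 48, against 13.2% of 13328 genes. Those genes are of any class, with a mean of at least 1 TPM by either quantifier. The members are all protein-coding with means of at least 4.88 TPM, so the 2 sets are unlike.

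Beside other gene lists, the members stood near the rest of the cell cycle. Genes of DNA replication (42) had a median of 11.9 and 14.8 TPM, with Pcna (77.9 ± 20.7), Mcm7 (45.1 ± 0.651) and Mcm3 (42.9 ± 2.00) highest, and 25 of the 42 reached 10 TPM in both libraries. On the log2(TPM + 0.1) scale, the median of the members exceeded theirs by 0.24 ± 0.08, and by 0.18 and 0.29 in the single libraries. The median of the 74 other mitotic genes was lower, at 7.09 and 8.54 TPM, 1.00 ± 0.11 below the members on the log2 scale, and 26 of them reached 10 TPM in both. Its highest were Hjurp (79.8 ± 8.36), the chaperone that loads Cenpa, Cks2 (48.6 ± 17.6), a subunit of Cdk complexes, and the condensin II subunit Ncaph2 (34.4 ± 3.34), and Cenpw (1.15 ± 0.375) was lowest.

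Regulators of this program, 19 genes of the DREAM, MuvB and E2F groups, had a median of 11.2 ± 1.14 TPM. Tfdp1, the partner of E2F proteins, led at 60.7 ± 18.9 TPM, followed by Rbbp4 (44.4 ± 6.75) and E2f2 (36.0 ± 3.22), and E2f5 was lowest (0.660 ± 0.339). Genes of cell cycle exit (14) had a median of 14.5 ± 2.36 TPM, and the antiproliferative genes Btg1 (359.9 ± 64.9) and Btg2 (223.3 ± 50.2) and the D-type cyclin Ccnd3 (176.3 ± 19.7) were highest. Cdkn2a had 0 counts in both libraries. The member median exceeded that of the exit list by 0.13 ± 0.08 and that of the anaphase-promoting complex core by 0.13 ± 0.05 on the log2 scale.

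Primary granule genes, which are made by the dividing promyelocytes, stood well above the members. The 6 measured had a median of 87.9 and 110.5 TPM, with Mpo (228.7 ± 50.02), Elane (158.6 ± 30.5) and Prtn3 (155.5 ± 13.5) highest and Bpi at 0 and 1 count. The member median minus theirs was -2.41 ± 0.02 on the log2 scale, and -3.26 without Bpi, which has fewer than 10 counts. Secondary granule genes (9), made by myelocytes and later cells, had a median of 1273 ± 401 TPM with Ngp, Ltf and Lcn2 highest (6877, 4734 and 3340 TPM) and Olfm4 lowest (85.2), and the members lay 6.30 ± 0.16 below on the log2 scale. Against mature neutrophil genes the distance was 4.63 ± 0.07.

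**Figure D4:**
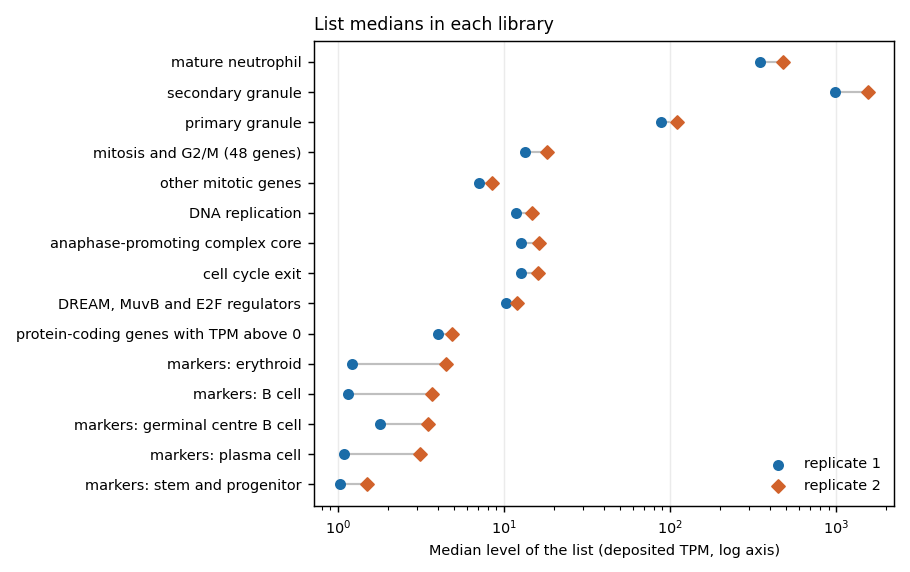
Median level of each gene list in replicate 1 (circles) and replicate 2 (diamonds), in deposited TPM on a log axis. The 48 members, at 13.5 and 18.2 TPM, lie beside DNA replication and far below the granule and mature neutrophil lists, and above the marker lists of erythroid, B lineage and progenitor cells.

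The libraries were compared on counts, with an exact two-sided binomial test over the 15118 genes that had at least 10 counts together, TMM scaling and Benjamini-Hochberg adjustment. This test compares these 2 libraries beyond counting error, not conditions. It called 20 of 48 members (41.7%) at an adjusted p under 0.05, against 32.1% of all genes. Of these 20, 18 were higher in replicate 2 (16.9% of all genes) and 2 in replicate 1 (15.1%). Depth makes a call easier, and no member had fewer than 186 counts in either library. Raising the minimum from 10 to 50 counts left 11859 genes. Of those, 20.5% were called in favour of replicate 2 and 17.6% of replicate 1, with 19 and 2 members. How much of the gap between members and all genes comes from depth was not tested further. The median log2 ratio of replicate 1 over replicate 2 was -0.11 for the members and 0.00 for all genes tested, and no member was both called and 1.5-fold apart (10.6% of all genes).

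The largest difference was in cyclin B2, with Ccnb2 (ENSMUSG00000032218.7, chromosome 9, 70407692 to 70421547) at 478 counts against 704 in replicate 2 (a log2 ratio of -0.54, adjusted p = 2.68e-09, exact binomial test). The next were Nusap1 (525 and 744 counts, -0.48, adjusted p = 3.45e-08), a protein that bundles spindle microtubules, and Pttg1 (186 and 260, -0.46, adjusted p = 0.00367). Hmmr, a spindle pole protein, had 474 and 659 counts (-0.46, adjusted p = 1.33e-06), Cdca3 403 and 550 (-0.43, adjusted p = 3.69e-05) and Ube2c 505 and 675 (-0.40, adjusted p = 1.88e-05). Mki67, by far the deepest, had 14636 and 18105 counts (-0.29, adjusted p = 7.50e-71). The 2 members higher in replicate 1 were Incenp, with 2660 and 2257 counts (0.26, adjusted p = 8.15e-09), and Ect2, with 630 and 544 (0.23, adjusted p = 0.0240).

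By role, all 4 genes around the anaphase-promoting complex and 4 of 6 spindle microtubule proteins were higher in replicate 2, and 0 of 5 checkpoint genes and 0 of 7 kinesins were called. With kallisto counts Bub1b, Bub3, Kif20a and Kif23 were also called, higher in replicate 2. With protein-coding counts as the total, Kif22 and Kif4 were called higher in replicate 1 and Cdc20 was not called (adjusted p = 0.253). Whether the roles differ from one another was not tested. Cdk1 (780 and 731 counts, 0.11, adjusted p = 0.266) and Aurkb (814 and 755, 0.13, adjusted p = 0.189) did not pass. Of the 74 other mitotic genes 9 had more counts in replicate 2 by this test against 7 for replicate 1, with a median ratio of 0.00, and of the 42 replication genes 3 and 2.

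**Figure D5:**
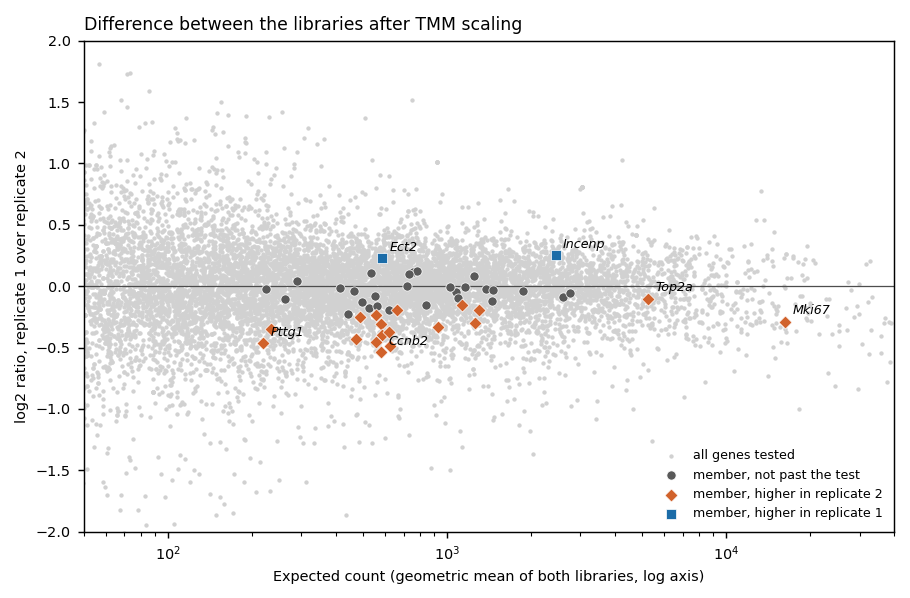
Log2 ratio of replicate 1 over replicate 2 after TMM scaling against the expected count (geometric mean of both libraries, log axis), for all genes tested within the axes (grey) and the members. Diamonds are the 18 members higher in replicate 2, squares the 2 higher in replicate 1 and dark circles those that did not pass the test. The members lie within 0.54 of 0 on the log2 scale.

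The counts of calls changed with the scaling. With the counts of protein-coding genes as the total, 11 members were called higher in replicate 2 against 7 for replicate 1. Of all genes tested, 11.3% and 24.1% were called in these directions. The members' median ratio was -0.01 while that of all genes was 0.10. With the ERCC spike-in counts as the total, all 48 were higher in replicate 2, as were 73.8% of all genes, whose median moved to -0.74. In each count scaling run more members were higher in replicate 2 than in replicate 1, and the members' median minus that of all genes was -0.11 with TMM, protein-coding and spike-in totals alike, since such a scaling moves all genes together. The direction of the levels did turn. By deposited TPM 45 of 48 members were higher in replicate 2, but with TPM over protein-coding genes alone only 16 of 48. The median of protein-coding genes with TPM above 0 turned too, from 4.02 and 4.86 deposited TPM to 12.5 and 10.9 TPM in replicates 1 and 2. These genes held 322358 and 447868 of the deposited TPM. Ccnb2 kept its side under each of these scalings, with log2 ratios of -0.44 by protein-coding counts and -1.28 by spike-ins.

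Other markers moved between the same libraries, where 16.9% of all genes tested were higher in replicate 2 and 15.1% in replicate 1. Of 8 B cell genes 7 were higher in replicate 2 (median log2 ratio -1.57), and their summed level was 58.4 and 132 TPM, led by Ighm (80.2 ± 41.0), Cd79b (4.05 ± 4.02) and Ebf1 (2.67 ± 1.48), with Ms4a1 (0.340 ± 0.057) lowest. Of 10 erythroid genes 7 were higher there (-1.17), with a sum of 62.3 and 144.8 TPM, led by Hba-a1 (44.3 ± 27.0), Hbb-bs (33.7 ± 21.3) and Tfrc (10.2 ± 1.55), with Klf1 at 1 and 12 counts. All 10 mature neutrophil genes were also higher in replicate 2 (-0.55), while of the 7 stem and progenitor genes tested 1, Sox4, was higher in replicate 2 and 0 in replicate 1 (median 0.16, with Kit at 4.41 and 3.96 TPM). Platelet and megakaryocyte genes went the other way, with 5 of 7 higher in replicate 1 and 1 in replicate 2 (median 1.28, summed level 19.99 and 15.76 TPM), as did endothelial and stromal genes, with 3 of 7 tested higher in replicate 1 and 0 in replicate 2 (0.20). All 9 secondary granule genes were higher in replicate 2 (-0.39). So were 5 of 7 monocyte and macrophage genes tested (-0.27), 4 of 6 dendritic cell genes (-0.93) and 3 of 5 plasma cell genes (-0.81). Fewer were higher there among primary granule (2 of 5), basophil and eosinophil (3 of 7), germinal centre B cell (1 of 4) and T and NK cell genes (1 of 3). In these 8 lists 0 genes were higher in replicate 1. The part of these markers in the difference of the mitotic genes was not tested.

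Part of the difference in deposited TPM came with a different effective length, the length of the transcripts assigned to a gene in each library. The ratio of effective lengths, replicate 2 over replicate 1, ran from 0.753 (Ncapg) to 1.33 (Incenp), and in 16 members it differed by over 10%. Ncapg had 715 and 725 counts but 9.39 and 14.9 TPM, and Cdca3, with the largest TPM ratio of 1.99, had effective lengths of 1414 and 1138 bases. The TPM ratio ran from 0.748 to 1.99 across members and the count ratio from 0.838 to 1.45. Counts of 42 members were whole numbers in both libraries, and the largest posterior SD of a member's count was 6.85 (Ccnb1).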

How the data were processed

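Per the submitters' notes, the 2 libraries were quantified on mm10 with GENCODE M21, with 3 tables each. Gene values and 1 of the transcript tables, in the column layout of RSEM, hold expected counts, TPM and FPKM that the authors derived from transcriptome alignments, with the posterior SD of each count. The second transcript table, in the column layout of kallisto, holds estimated counts and TPM that the authors derived from the reads. The aligner is not given in the sources used here. Deposited TPM is scaled over all entries, tRNA and spike-ins included. Reads of the CAST/EiJ alleles were quantified on mm10 too.

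Computed here were list medians, log2(TPM + 0.1) differences, transcript shares, library ratios on rounded expected counts (0.5 added, at least 10 counts in both together) and motif matches. The ratio test was tested on simulated data of 15118 genes for this library comparison, drawn with counting error alone. There 70.0% of genes changed 2-fold and 91.0% of genes changed 4-fold were recovered. Spread beyond counting error was not simulated, so the recovery does not cover it. Scaling used edgeR 4.0.16 and, as an alternative, DESeq2 1.42.0, in R 4.3.3, and the rest SciPy 1.17.1. With 1 library an arm, no quasi-likelihood test could be made. The tests and limits cover counting error alone, as PCR copies of a molecule cannot be recognised in these tables.

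The members, the lists and the alternatives were chosen with earlier results of these data known. Values are given for the highest and lowest member of each role, the 5 highest and 5 lowest members, the 6 called members with the largest ratios and those whose leading transcript varied. For another list, the 3 highest and the lowest gene are given, for marker lists where a result touches them. Some genes that this rule would name are not reported here.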

Additional observations from a re-analysis of the deposited data

How the results depend on the processing

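The median of the members was 41.2 TPM when TPM was taken over protein-coding genes alone, where 48 members reached 10 TPM in both libraries. Over protein-coding transcripts alone, an alternative chosen after seeing the data, the median was 11.7 TPM and the difference from DNA replication 0.48 on the log2 scale. The difference from primary granule genes was -2.35 with a pseudocount of 1, -2.47 by kallisto TPM, -2.51 over protein-coding transcripts and -3.26 after leaving out genes under 10 counts, Bpi among them. Members that differed between the libraries numbered 48 with ERCC scaling (0 higher in replicate 1, 48 in replicate 2, against 1.24% and 73.8% of all genes). They numbered 0 when a 1.5-fold ratio was also required (0 and 0, against 5.13% and 5.5%). With total counts 1 was higher in replicate 1 and 24 in replicate 2 (12.2% and 20.1% of all genes). With protein-coding counts these were 7 and 11 (24.1% and 11.3%). By kallisto counts 28 were called, 2 higher in replicate 1 and 26 in replicate 2 (13.8% and 17.2% of all genes). The cause of these changes was not tested, apart from the fewer genes left by the stricter criteria. In the single libraries the median was 13.5 to 18.2 TPM, the number of members at 10 TPM or more 32 to 42, the role groups with a median of at least 10 TPM 7 to 10, the difference from DNA replication 0.18 to 0.29, that from primary granule genes -2.43 to -2.39, and the members led by a coding transcript 44 to 46, with 0 to 0 apart between quantifiers. Of the alternative values of the main results, 50 kept their direction and stayed within the spread between libraries, or within 1.5 times for counts. The other 17 did not. No paired analysis was possible because there is 1 group. Depth limits the library ratios most for Pttg1, Ttk and Spc25, the members with the fewest counts.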
